A study of Mus musculus with 18 samples.

Results

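The collagen-rich stromal spots are the spots of 4 mouse bladder sections in which fibroblast matrix transcripts ranked above both the muscle and the urothelial transcripts. They numbered 966 of the 4415 spots that held 500 or more UMIs (unique molecular identifiers, each counting 1 captured RNA molecule). They were chosen by ranking the spots of each section on 3 shares of their UMIs. The fibroblast share sums Col1a1, Col1a2, Col3a1, Dcn and Lum. The muscle share sums Myh11, Actg2, Des and Cnn1. The urothelial share sums Krt5, Krt15, Upk1a, Upk1b, Upk2 and Upk3a. A spot was taken when it lay among the highest 1 in 4 spots of its section by the fibroblast share and ranked better on that share than on the other two.

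The series is an atlas of the mouse urinary bladder with 18 samples, of which the 4 spatial sections are used here. All 4 are frozen sections of whole bladder from C57BL/6 mice. Sections 1 and 2 are from animals aged 22 months and sections 3 and 4 from animals aged 14 months. Each section carries "4X Male" as its sex and number, and the labels do not say whether the sections came from separate animals. No p-value therefore measures more than the spread between these sections, and those of edgeR also draw on a spread shared between genes. No treatment, transgene or disease is named, and values are given throughout in the order of sections 1, 2, 3 and 4.

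The bladder wall is lined by the urothelium, a stratified epithelium whose basal cells express keratin 5 and whose luminal cells make uroplakins. Beneath it lies the lamina propria, a connective tissue of fibroblasts, vessels, nerves and immune cells, and beneath that the detrusor, bundles of smooth muscle wrapped in further connective tissue, with an outer adventitia or serosa. Fibroblasts secrete the fibrillar collagens I and III, and the small leucine-rich proteoglycans decorin and lumican bind collagen fibrils and help to set their diameter. Basal urothelial cells secrete sonic hedgehog, and the fibroblasts below them carry its receptor and return Wnt and Bmp signals. A Visium spot covers a small region that can hold several cells of different types, so the spots described here are regions rich in stromal RNA and not purified fibroblasts.

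The 4 sections gave 283, 246, 189 and 248 collagen-rich spots, or 21.5%, 23.7%, 20.2% and 22.1% of the spots kept. The rule caps this share at 1 spot in 4, so the figures are a description. Among the highest 1 in 4 spots by the fibroblast share, 10, 6, 33 and 23 spots were passed over because the muscle share ranked better, and 36, 7, 12 and 9 because the urothelial share did. Section 3 lost the most spots to muscle and section 1 the most to urothelium.

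The median fibroblast share of the collagen-rich spots was 0.641%, 0.710%, 0.591% and 1.04% of UMIs, against 0.293%, 0.331%, 0.314% and 0.483% in the other spots. The lowest share inside the set was 0.472%, 0.543%, 0.474% and 0.830%. The highest share among spots outside the highest 1 in 4 was 0.471%, 0.542%, 0.473% and 0.830%. The set therefore ends within a continuous range of values. Section 4 was the richest in these transcripts in both classes of spots.

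The genes that chose the spots are described without a test. Levels are CPM, the UMIs of a gene scaled to a common total of UMIs in the summed spots, and are not divided by gene length, so they are compared between spots and not between genes. Col1a1, a chain of collagen I, stood at 1793, 2522, 1328 and 2448 CPM in the collagen-rich spots and at 624, 826, 522 and 885 in the other spots. Col3a1, the chain of collagen III, stood at 1329, 1454, 989 and 2549 CPM against 451, 505, 393 and 865.

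Decorin (Dcn) stood at 2255, 1831, 2675 and 2897 CPM in the collagen-rich spots against 886, 741, 1025 and 1018 in the other spots. Lumican (Lum) stood at 99.2, 58.4, 182 and 406 CPM against 67.9, 45.1, 80.0 and 146. All 4 genes were higher in the collagen-rich spots of every section, as the rule requires of their sum. Lum differed the least in section 2.

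The collagen-rich spots still held RNA of the neighbouring layers. Their median muscle share was 0.320%, 0.343%, 1.47% and 0.741% of UMIs, against 2.00%, 1.17%, 1.55% and 1.18% in the other spots. Their median urothelial share was 0.614%, 0.628%, 0.330% and 0.417%, against 0.499%, 0.679%, 0.486% and 0.399%. By these medians per spot, section 3 held the highest muscle share and the lowest urothelial share.

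Median UMIs per collagen-rich spot were 18490, 18042, 14573 and 14087, against 14858, 17185, 16866 and 13916 in the other spots, a mean log2 ratio of 0.05 ± 0.22 (SD, n = 4 sections, exact two-sided sign-flip permutation p = 0.625). The median mitochondrial share was 2.87%, 2.89%, 4.22% and 2.90% of UMIs in the collagen-rich spots and 4.30%, 3.98%, 4.84% and 4.06% in the other spots. It was lower in all 4 sections by a mean of 1.08 ± 0.339 percentage points (exact permutation p = 0.13, the smallest that 4 sections allow). The ends of the set, defined below, differed in this share. Total UMIs per section ranged from 21976101 to 32021223. Of the 2626 distinct spot barcodes 1254 occurred in more than 1 section, and 138 of 815 among the collagen-rich spots; spots were therefore identified by section and barcode together.

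The set divided into spots whose next best rank was the urothelial one and spots whose next best rank was the muscle one. They are called the urothelial end and the muscle end. The urothelial end held 187, 144, 67 and 136 spots, or 66.1% (95% exact Clopper-Pearson interval 60.2 to 71.6), 58.5% (52.1 to 64.8), 35.5% (28.6 to 42.7) and 54.8% (48.4 to 61.1) of the collagen-rich spots. These intervals cover counting error only. Section 3 was the only one in which most of the collagen-rich spots lay at the muscle end.

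**Figure D1:**
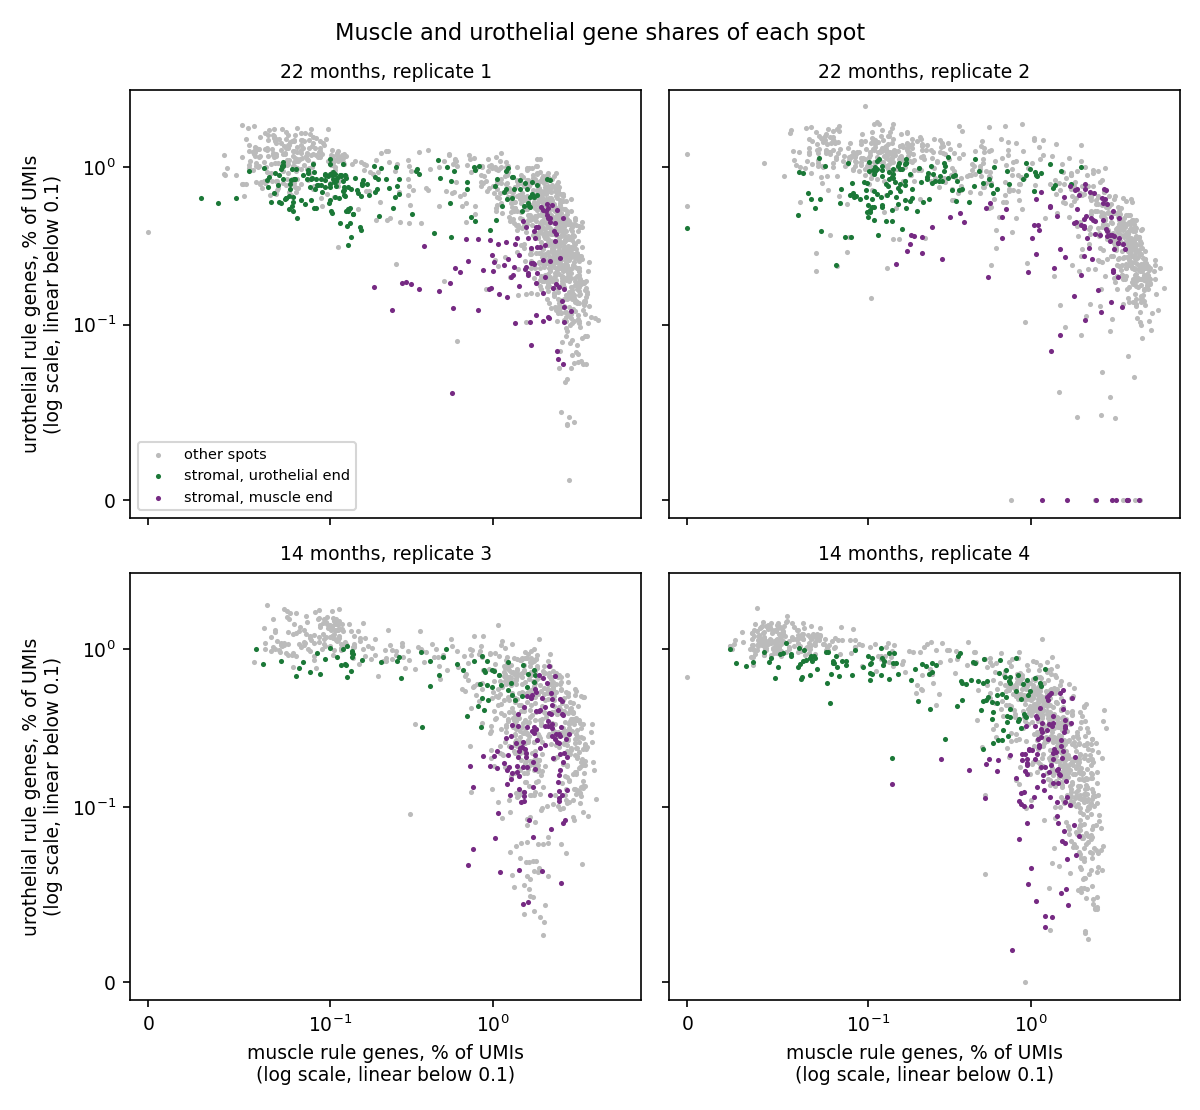
Share of each spot's UMIs from the 6 urothelial genes (vertical axis, percent) against the share from the 4 muscle genes (horizontal axis, percent), both on axes linear near 0 and logarithmic beyond, with 1 panel per section. Green points are collagen-rich spots of the urothelial end, purple points those of the muscle end and grey points all other spots; the collagen-rich spots overlap the other spots and mostly lie on the lower left side of their cloud, with 67 green points in section 3 and 187 in section 1 (sections are titled by age and replicate number).

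Spots at the urothelial end were deeper. Their median UMIs were 25535, 24584, 25663 and 16598, against 9389, 9386, 12468 and 12151 at the muscle end, a mean log2 ratio of 1.08 ± 0.457 (SD, n = 4 sections, exact two-sided permutation p = 0.13, the smallest possible). Whether this depth reflects more cells or more RNA per cell cannot be told apart in spots. For the CPM levels below, the mix of cells and the expression per cell likewise cannot be told apart. The median mitochondrial share was 2.19%, 2.29%, 2.86% and 2.00% at the urothelial end, below the other spots in every section. At the muscle end it was 5.18%, 3.85%, 4.73% and 3.64%, above the other spots in section 1 and below them in sections 2 to 4.

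The collagen-rich spots were next compared with the other 3449 spots of their own sections over 14104 genes, leaving out the 15 genes of the rule. A gene is called higher or lower when the Benjamini-Hochberg adjusted p of edgeR's quasi-likelihood test, with the section as a block, is under 0.05. The spots were chosen on other genes of the same UMIs, so a call here says only that a difference repeated over the 4 sections. Of all genes tested, 2578 (18.3%) were called higher and 1961 (13.9%) lower, with a median log2 difference of -0.01. With every spot weighted equally, 1477 were called higher and 552 lower by limma, or 72.8% higher among the called genes against 56.8% here. That alternative, here and below, also used no TMM factors to scale the sums against each other. The part of each change was not tested. Differences below are log2 fold changes of summed UMIs. Each standard error (SE) comes from edgeR's quasi-likelihood fit, whose spread is partly shared between genes. It is therefore not the spread of a gene's own section differences alone. For the comparisons with muscle-rich and urothelium-rich spots that fit held 16 sums, including those of the spots left over in each section.

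Against these other spots the extracellular matrix lists were called higher almost throughout. Urothelium-rich spots gave 13258573, 9077365, 10114250 and 10780389 UMIs of the other spots' 24625428, 17404326, 18010723 and 18541256, rule genes left out. Against muscle-rich spots, given further on, none of these lists was called higher more often than lower. Of the collagens beside types I and III, 13 of 15 were called higher and 2 were not called, with a median log2 difference of 1.03. Col6a1 and Col6a2, chains of the microfibrillar collagen VI, were higher by 1.04 and 1.03. The basement membrane collagen Col4a1 was higher by only 0.28, and its difference turned to -0.11 when every spot was weighted equally.

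Of the other small leucine-rich proteoglycans, 7 of 8 were called higher (median 1.07). Podn was higher by 1.02, Prelp by 0.83 and biglycan (Bgn) by 0.58. Of the genes of elastic fibres and microfibrils, 11 of 14 were called higher (median 0.88). Efemp1, which encodes fibulin-3, stood at 161, 105, 181 and 313 CPM against 49.2, 43.7, 57.1 and 80.7, a log2 difference of 1.61 (SE 0.11). Section 2 had the smallest separation and section 4 the highest values in both classes. Fbln1, Ltbp4 and Emilin1 were higher by 1.01, 0.91 and 0.77.

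Of the genes that fold, trim and cross-link collagen, 15 of 17 were called higher (median 0.73), among them Serpinh1, the collagen chaperone of the endoplasmic reticulum, at 0.72 and Pcolce, which enhances procollagen cleavage, at 0.88. Of the adhesive and matricellular genes, 11 of 15 were called higher (median 0.79), including Sparc at 0.93 and the calcification inhibitor Mgp at 0.80. Of the matrix proteases and their inhibitors, 13 of 14 were called higher (median 0.89). Mmp2, a gelatinase that fibroblasts secrete, stood at 665, 585, 446 and 733 CPM against 252, 202, 194 and 299, a log2 difference of 1.30. Its values in the 4 collagen-rich sums all lay above those of the other spots. Htra1 was higher by 1.00 and the inhibitor Timp2 by 0.72.

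Genes that identify fibroblasts, and that the rule did not use, were called higher in 11 of 13 cases (median 0.95), among them Ly6a at 1.04, the endocytic receptor Lrp1 at 0.61 and gelsolin (Gsn) at 0.49. Of the genes of Pi16-type fibroblasts, a type found around vessels and in adventitia in many tissues, 7 of 8 were called higher (median 0.88), with Pi16 itself at 0.84. Of the genes grouped here with Inmt, 4 of 6 were called higher (median 0.92), with Inmt at 0.98. These lists check the name stromal on genes that the rule did not use, against all other spots only; against the muscle-rich spots the same lists, given further on, were called about as often in each direction.

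Of the genes grouped with Car3 and Cxcl14, 4 of 6 were called higher and 1 lower (median 0.77, range -1.09 to 1.49). Car3, carbonic anhydrase 3, stood at 613, 283, 316 and 361 CPM against 193, 82.9, 113 and 152, a log2 difference of 1.49 (SE 0.07). Cxcl14, a chemokine, stood at 1196, 1253, 817 and 694 CPM against 487, 442, 340 and 307, a difference of 1.26. With the muscle end alone as the collagen-rich spots neither was called, at -0.79 for Car3 (edgeR adjusted p = 0.43) and -0.41 for Cxcl14 (adjusted p = 0.58). In section 2 the muscle end stood above the other spots for both genes, and in the other 3 sections below them. With Dcn and Lum alone as the fibroblast genes of the rule, the difference of Car3 was -0.35 and that of Cxcl14 -0.08.

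Of the genes of Hedgehog, Wnt and Bmp signalling, 12 of 16 were called higher and 3 lower (median 1.14). The Wnt antagonist Sfrp2 stood at 90.0, 58.8, 61.5 and 109 CPM against 23.5, 19.7, 19.0 and 32.7, a log2 difference of 1.69 (SE 0.07). It was the largest called rise among the genes of at least 50 CPM that could be named. The ligand Wnt2 stood at 79.0, 95.1, 66.2 and 83.8 CPM against 25.2, 31.0, 23.4 and 28.8, a difference of 1.52 (SE 0.06). Its values within each class varied little over the sections.

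Hhip, which binds and restrains hedgehog ligands, stood at 110, 90.3, 53.7 and 45.1 CPM against 39.5, 27.1, 17.9 and 18.1, a log2 difference of 1.47 (SE 0.08). The receptor Ptch1, itself a target of the pathway, stood at 166, 158, 88.0 and 106 CPM against 63.6, 65.9, 45.8 and 50.2, a difference of 1.12. The muscle end alone gave -0.32 for Hhip and -0.00 for Ptch1. The members called lower were Wnt5a (-0.42), Bmp7 (-0.33) and Bmp2 (-0.24), named after their values were seen; Bmp2 turned to 0.06 when every spot was weighted equally and to 0.10 with the urothelial end alone. Of the TGF-beta genes, 7 of 10 were called higher (median 0.31), with the secreted matrix protein Tgfbi at 1.12. Of the growth factors and their binding proteins, 9 of 15 were called higher (median 0.64), with Igfbp6 at 0.98 and Igfbp7 at 0.64.

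Complement genes were called higher in 8 of 9 cases (median 1.27). Serping1, the C1 inhibitor, stood at 842, 1034, 869 and 1004 CPM against 402, 432, 401 and 402, a log2 difference of 1.14. C2 stood at 86.9, 67.1, 71.5 and 105 CPM against 28.8, 25.2, 22.0 and 34.2, a difference of 1.52 (SE 0.07). Both separated the classes by a similar amount in every section.

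C3, the central complement protein, was less even. It stood at 386, 164, 923 and 768 CPM against 108, 92.3, 257 and 242, a log2 difference of 1.51 (SE 0.21), and section 2 had the smallest separation. The call was lost without section 1 or without section 4, and with the urothelial end alone the difference was 0.03. Of the chemokines and cytokines of stroma, 7 of 9 were called higher (median 0.83), with Cxcl12, a chemoattractant that fibroblasts make, at 0.83.

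Other genes with large rises were Spon1, Serpina3n and Tm4sf1. Spon1, which encodes the matrix protein spondin 1, stood at 205, 237, 120 and 196 CPM against 68.4, 66.0, 38.8 and 65.6, a log2 difference of 1.60 (SE 0.06), with the muscle end alone at -0.36. Serpina3n, a protease inhibitor with close relatives in a gene cluster that reads may not tell apart, stood at 164, 255, 233 and 566 CPM against 62.8, 59.8, 89.8 and 202, a difference of 1.53. Tm4sf1, a membrane protein of endothelial and mesenchymal cells, was higher by 1.37. Plac8 was higher by 1.47 and the membrane protein Adam23 by 1.41. Genes named for the size of their difference were required to have the same sign in all 4 sections.

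Markers of other cell types moved with the same spots. All 8 tested markers of blood endothelium were called higher (median 1.01), with Pecam1 at 54.5, 70.2, 62.6 and 65.1 CPM against 31.2, 29.3, 35.0 and 29.8. All 10 macrophage markers were called higher (median 0.75), with Lyz2 at 0.87 and the complement subunits C1qb at 0.74 and C1qa at 0.68. All 7 markers of T or NK cells were called higher (median 1.11), including the T cell receptor subunit Cd3d at 1.46. The part of these cells in the results for complement and chemokines was not tested.

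Of the markers of B and plasma cells 3 of 7 were called higher (median 0.74), of mesothelium 3 of 5 higher and 1 lower (median 1.55), of lymphatic endothelium 1 of 6 higher (median 0.63), and of pericytes 2 of 6 higher and 1 lower (median 0.11). None of the 4 mast cell markers was called (median 0.95), with 2 at an unadjusted p under 0.05 and 1 called by DESeq2. The stress and immediate-early genes had a median of 0.01, with 6 of 20 called higher and 2 lower. None of the 6 Schwann cell markers was called (median -0.22), with 1 at an unadjusted p under 0.05 and 0 called by DESeq2. None of the 5 erythroid genes was called (median 0.24), with 0 at an unadjusted p under 0.05 and 0 called by DESeq2. None of the 5 skeletal muscle genes was called (median -0.24), with 1 at an unadjusted p under 0.05 and 0 called by DESeq2.

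Of the urothelial genes beside those of the rule, 12 of 13 were called lower (median -0.60). Krt20, the keratin of the luminal umbrella cells, stood at 82.4, 72.5, 38.8 and 27.8 CPM against 126, 138, 100 and 75.6, a log2 difference of -1.09. The cornified envelope gene Sprr2a3, which shares sequence with its neighbours, stood at 381, 316, 250 and 228 CPM against 669, 689, 522 and 557, a difference of -1.12. Its neighbour Sprr2b was lower by -1.10.

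Fabp4, a fatty acid binding protein, had the largest named fall, at 948, 1072, 437 and 266 CPM against 1632, 2392, 1076 and 731, a log2 difference of -1.23 (SE 0.09). It is also 1 of the 7 adipocyte markers, whose sum ranged from 348 to 1108 CPM in the collagen-rich spots and from 820 to 2446 CPM in the other spots. Of the other 6 markers, Adipoq, Cidec and Lep were at 0 in the collagen-rich spots of every section and Plin1 and Retn did not pass 0.292 and 0.207 CPM, while Plin4 stood at 58.5, 35.6, 98.4 and 82.6 CPM against 105, 53.2, 95.2 and 89.1. Tspan6, Rnf128, Hopx and Sdr42e1 were lower by -1.15, -1.11, -1.08 and -1.08. None of the 13 smooth muscle genes beside those of the rule was called (median -0.57), with 1 at an unadjusted p under 0.05 and 4 called lower by DESeq2.

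**Figure D2:**
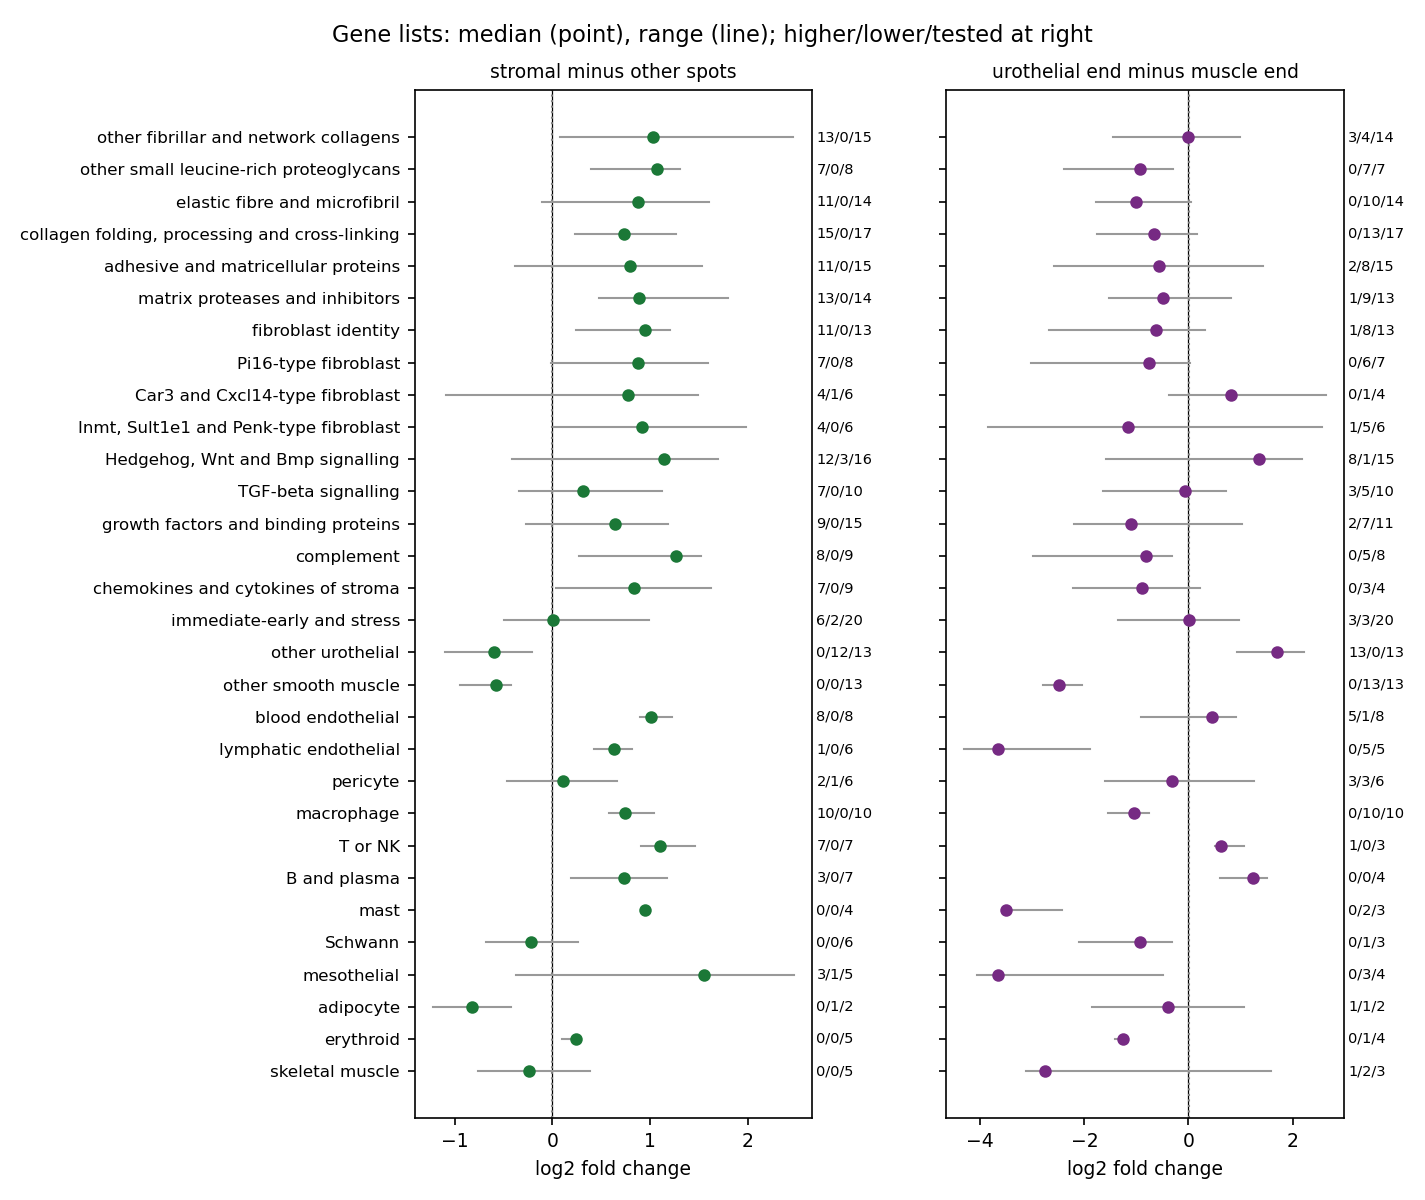
Log2 fold change by gene list (horizontal axis), with the point at the median of the members tested and the bar over their whole range, for collagen-rich spots against other spots and for the urothelial end against the muscle end. The numbers at the right are the members called higher, called lower and tested; the medians of the matrix lists lie above 0 in the first comparison and mostly below it in the second, where the smooth muscle median is -2.48 and the urothelial median 1.70.

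The ends of the set were compared with each other over 11159 genes, of which 1965 (17.6%) were called higher at the urothelial end and 2210 (19.8%) at the muscle end, with a median of 0.01. With every spot weighted equally and no TMM factors, 62.7% of the called genes were higher at the urothelial end by limma, against 47.1% here. The median of all genes was then 0.136. Urothelial and muscle genes chose the ends, so their difference is a description: the 13 other urothelial genes had a median of 1.70 and the 13 other smooth muscle genes a median of -2.48. The summed smooth muscle list ranged from 5190 to 11491 CPM at the urothelial end and from 32427 to 47516 CPM at the muscle end, and the summed urothelial list from 12512 to 14709 CPM and from 3739 to 7267 CPM. The part of this admixture in the differences below was not tested.

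The genes of the rule differed in kind between the ends. Col1a1 stood at 1973, 2635, 1744 and 2708 CPM at the urothelial end and at 680, 2087, 774 and 1967 CPM at the muscle end. Dcn ran the other way, at 1785, 1601, 1926 and 2269 CPM against 5163, 2724, 3676 and 4056 CPM. Lum also ran the other way, at 63.4, 32.0, 102 and 251 CPM against 321, 161, 289 and 692 CPM.

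Col3a1 was higher at the urothelial end in sections 1 to 3 and lower in section 4, at 1413, 1507, 1176 and 2492 CPM against 808, 1252, 740 and 2654 CPM. UMIs of the 3 collagen genes of the rule outnumbered those of Dcn and Lum by 3.03, 4.25, 2.39 and 3.47 to 1 at the urothelial end and by 0.406, 1.85, 0.609 and 1.37 to 1 at the muscle end. The ratio was lower at the muscle end in every section, and within sections 1 and 3 the proteoglycan genes outnumbered the collagen genes there. The neighbouring classes differed alike, at 0.892, 1.39, 0.975 and 1.56 to 1 in the muscle-rich and 3.31, 4.66, 2.72 and 4.37 to 1 in the urothelium-rich spots. The other 7 proteoglycan genes tested were all called lower at the urothelial end (median -0.92), with Bgn at -0.80, Podn at -0.34 and Prelp at -0.30; the calls of Podn and Prelp were lost when single sections were left out.

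The matrix that accompanied decorin at the muscle end was broad. Of the elastic fibre and microfibril genes, 10 of 14 were called lower at the urothelial end and 0 higher (median -0.999). Of the collagen processing genes, 13 of 17 were called lower and 0 higher (median -0.66). Of the proteases and inhibitors, 9 of 13 were called lower and 1 higher (median -0.50), and of the adhesive genes 8 of 15 lower and 2 higher (median -0.56). In these lists, in the same order, DESeq2 called 11, 11, 6 and 7 genes lower and 0, 0, 1 and 3 higher. The muscle-rich spots held these lists as well. The elastic fibre, processing, protease and adhesive sums averaged 3030, 2055, 2351 and 8996 CPM there, against 4346, 2443, 3188 and 9728 CPM at the muscle end. With Dcn and Lum alone as the fibroblast genes of the rule, Fbln1 went from -0.55 to 0.07 and Ltbp4 from -0.33 to 0.10.

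Of the other collagens 3 of 14 were called higher at the urothelial end and 4 lower (median -0.02), near the shares over all genes of 17.6% and 19.8%. Col4a1 was among those lower, at -0.82, and the protease inhibitor Timp2 was lower by -1.01. Mmp2 was higher at the urothelial end, at 731, 628, 588 and 816 CPM against 257, 419, 256 and 580 CPM, a log2 difference of 0.81 (SE 0.15). The lowest sum of the urothelial end lay just above the highest sum of the muscle end.

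Of the fibroblast identity genes, 8 of 13 were called lower at the urothelial end and 1 higher (median -0.62). Clec3b, which encodes tetranectin, stood at 113, 107, 209 and 284 CPM at the urothelial end and at 421, 353, 550 and 689 CPM at the muscle end, a log2 difference of -1.69 (SE 0.12). The ends did not overlap over the sections. Pi16 stood at 403, 576, 504 and 554 CPM against 563, 1289, 635 and 909 CPM (-0.80), and Inmt at 408, 280, 487 and 391 CPM against 809, 350, 916 and 750 CPM (-0.92).

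Of the Pi16-type genes, 6 of 7 were called lower at the urothelial end and 0 higher (median -0.75), and of the Inmt-type genes 5 of 6 lower and 1 higher (median -1.16). Dpp4, a surface peptidase used to mark Pi16-type fibroblasts, stood at 4.41, 3.39, 3.42 and 5.63 CPM against 62.9, 16.2, 24.1 and 21.5 CPM, a log2 difference of -3.04. Sult1e1, an oestrogen sulfotransferase, stood at 0.847, 0.521, 2.45 and 4.51 CPM against 46.1, 7.08, 22.2 and 18.7 CPM (-3.85). The Inmt-type gene called higher was Adamdec1, a metalloprotease-like secreted protein, at 25.4, 14.9, 16.6 and 34.9 CPM against 2.10, 7.08, 3.26 and 2.08 CPM (2.57). Penk, which encodes proenkephalin, was lower by -2.67, a call lost without section 2. Dpp4, Sult1e1, Adamdec1 and Penk were picked from their lists after their values were seen. Sult1e1 was under 5 CPM in every sum of the urothelial end. Smoc2 and Scara5 were lower by -1.40 and -0.77, the latter turning to 0.10 with Dcn and Lum alone.

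Of the genes grouped with Car3 and Cxcl14, 0 of 4 were called higher at the urothelial end by edgeR and 1 lower, Ndufa4l2, named after its values were seen (median 0.81). By DESeq2 2 were called higher and 0 lower. Car3 and Cxcl14 themselves were not called by edgeR. Car3 stood at 705, 310, 517 and 527 CPM there and at 46.1, 178, 48.3 and 54.8 CPM at the muscle end, a log2 difference of 2.64 (SE 0.69, edgeR quasi-likelihood adjusted p = 0.065). Cxcl14 stood at 1353, 1329, 1287 and 980 CPM against 222, 956, 190 and 164 CPM, a difference of 1.97 (SE 0.54, adjusted p = 0.073). The ends did not overlap for either gene. The muscle end of section 2 stood far above those of the other sections in both, and without section 2 the difference of Car3 was 3.40 and was called.

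Of the genes of Hedgehog, Wnt and Bmp signalling, 8 of 15 were called higher at the urothelial end and 1 lower (median 1.35). Among the 8 are Wnt5a, Bmp7 and Bmp2, which averaged 110.0 ± 24.1, 99.3 ± 17.5 and 92.8 ± 26.7 CPM at the urothelial end and 167 ± 16.9, 141 ± 21.1 and 119.9 ± 31.6 CPM in the urothelium-rich spots (SD, n = 4 sections). Wnt4 stood at 117, 118, 136 and 149 CPM against 22.0, 71.8, 33.9 and 40.9 CPM (1.55, SE 0.23). Wnt2 stood at 86.8, 105, 97.8 and 110 CPM against 31.4, 56.6, 24.1 and 35.4 CPM (1.36, SE 0.16). For both ligands every sum of the urothelial end lay above every sum of the muscle end. The member called lower, named after its values were seen, was the Wnt antagonist Sfrp1 at 28.3, 24.2, 38.6 and 40.2 CPM against 99.5, 46.5, 100.5 and 116 CPM (-1.58).

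Among the hedgehog genes, Ptch1 and Hhip had larger standard errors than Shh. Shh itself, made by basal urothelium, stood at 154, 110, 120 and 122 CPM at the urothelial end and at 21.0, 41.5, 19.6 and 21.5 CPM at the muscle end (2.19, SE 0.18). Ptch1 stood at 186, 164, 130 and 140 CPM against 39.8, 132, 32.0 and 41.6 CPM, a log2 difference of 1.35 that was not called (SE 0.38, edgeR adjusted p = 0.057). Hhip stood at 125, 98.5, 89.5 and 63.5 CPM against 14.7, 58.6, 5.87 and 11.1 CPM, likewise not called (2.09, SE 0.58, edgeR adjusted p = 0.063). Section 2 again had the highest muscle end for both, and for Ptch1 it lay above the urothelial end of section 3. Sfrp2 differed by 1.30 (edgeR adjusted p = 0.14). By DESeq2 11 of the 15 signalling genes were called higher at the urothelial end and 1 lower.

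**Figure D3:**
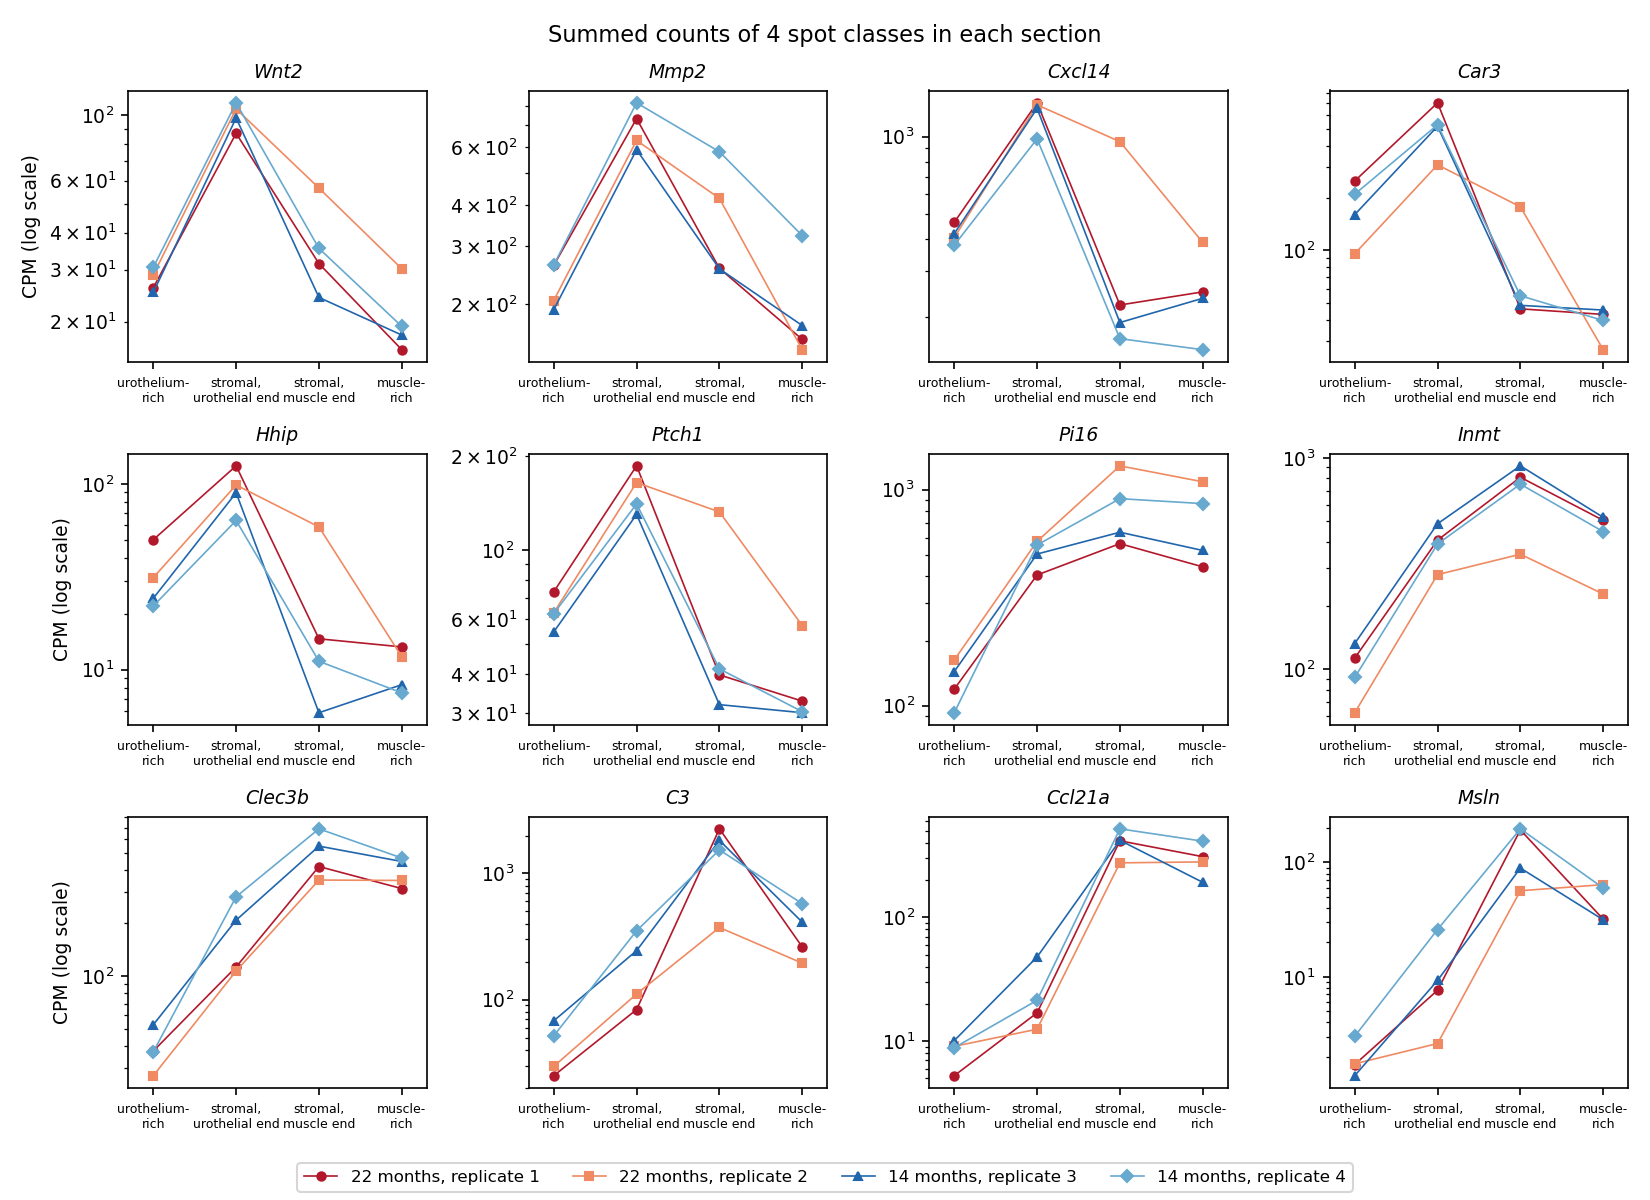
CPM on a log axis of 12 genes in urothelium-rich spots, the urothelial end, the muscle end and muscle-rich spots (left to right), with each line joining the 4 values of 1 section. Wnt2, Mmp2, Cxcl14 and Car3 are highest at the urothelial end in every section, whereas Clec3b and C3 are highest at the muscle end in every section, as are Ccl21a and Msln except in section 2, where muscle-rich spots are higher; for Ccl21a the muscle end spans 276 to 520 CPM and the urothelial end 12.5 to 47.9 CPM.

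Complement genes leaned to the muscle end, with 5 of 8 called lower at the urothelial end and 0 higher (median -0.82). By DESeq2 6 were called lower and 0 higher. C3 stood at 83.4, 111, 244 and 351 CPM at the urothelial end and at 2259, 373, 1829 and 1538 CPM at the muscle end, a log2 difference of -2.99 that was not called (SE 0.71, edgeR adjusted p = 0.052). Its ends did not overlap, and section 2 had the lowest muscle end. Serping1 was lower by -0.59 and C4b by -0.52, the latter turning to 0.19 with Dcn and Lum alone. C4b has a near-identical copy, so its reads may be split. The insulin-like growth factor binding protein Igfbp6 was lower by -1.49.

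The muscle end also carried the markers of lymphatic vessels and of the outer surface. The sum of the 6 lymphatic markers ranged from 24.2 to 79.2 CPM at the urothelial end and from 386 to 721 CPM at the muscle end. Ccl21a, the lymphatic chemokine, stood at 16.9, 12.5, 47.9 and 21.4 CPM against 416, 276, 419 and 520 CPM (-4.31, SE 0.31); near-identical Ccl21 copies exist, so its count is uncertain. Mmrn1 stood at 2.88, 0.782, 5.38 and 4.88 CPM against 79.6, 22.2, 65.2 and 61.7 CPM (-4.31, SE 0.23).

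Lyve1 stood at 4.07, 4.17, 13.7 and 31.6 CPM at the urothelial end and at 80.7, 53.6, 71.8 and 89.5 CPM at the muscle end (-2.84), and this call was lost without section 2. The sum of the 6 mesothelial markers ranged from 174 to 218 CPM at the urothelial end and from 261 to 767 CPM at the muscle end. It was 351, 381, 320 and 277 CPM in the urothelium-rich spots, above the muscle end in sections 2 and 3. The sum therefore does not mark the outer surface alone. Mesothelin (Msln) stood at 7.62, 2.61, 9.29 and 25.9 CPM against 193, 56.6, 89.4 and 197 CPM (-3.88, SE 0.32). The secreted protease inhibitor Slpi stood at 23.2, 68.3, 22.5 and 106 CPM against 615, 359, 379 and 702 CPM (-3.53, SE 0.56). The ends of each section were separated for all of these genes.

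All 10 macrophage markers were called lower at the urothelial end (median -1.04), with C1qa at -1.08 and Lyz2 at -0.77. The mast cell list summed to 0.169 to 16.2 CPM at the urothelial end and to 26.3 to 67 CPM at the muscle end, with the chymase Cma1 at 0, 0.782, 3.91 and 3.76 CPM against 22.0, 10.1, 22.2 and 18.0 CPM. Blood endothelium went the other way, with 5 of 8 called higher at the urothelial end and 1 lower (median 0.45), including Egfl7 at 0.63. By DESeq2 2 of these 8 were called higher and 1 lower. The largest falls among the genes of at least 50 CPM also held muscle transcripts. Acta1, the skeletal actin, stood at 102, 24.0, 141 and 196 CPM against 1093, 180, 990 and 1381 CPM (-3.13), and the smooth muscle gene Tagln at 1744, 1104, 2471 and 1585 CPM against 12575, 8788, 11490 and 8403 CPM (-2.74). Tnnt2, Ckm and Art3 were lower by -3.06, -2.76 and -2.73.

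Among called genes of at least 50 CPM, the largest rises at the urothelial end included epithelial genes. Gsdmc2, of a gasdermin cluster with near-identical copies, stood at 261, 95.4, 206 and 166 CPM against 37.7, 36.4, 33.9 and 13.2 CPM (2.47). Trp63, the transcription factor of basal epithelium, stood at 140, 103, 144 and 131 CPM against 15.7, 39.4, 24.8 and 22.2 CPM (2.23). Cyp2f2, Rbp4, Sowahc, the water channel Aqp3 and Mgst2 were higher by 2.18, 2.18, 2.08, 1.97 and 1.96, and the call of Rbp4 was lost without section 1 or without section 4.

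Against the 1021 muscle-rich spots, chosen by the same rule on the muscle share, 3326 of 13226 genes (25.1%) were called higher in the collagen-rich spots and 3258 (24.6%) lower, with a median of 0.03. With every spot weighted equally and no TMM factors, 74.8% of the called genes were higher by limma, against 50.5% here. The median of all genes was then 0.200. Of the other collagens 4 of 14 were called higher and 4 lower, near the share over all genes. Of the other proteoglycans 0 of 8 were called higher and 2 lower, of the elastic fibre genes 2 of 14 higher and 4 lower, and of the collagen processing genes 1 of 17 higher and 6 lower. Of the adhesive genes 3 of 15 were called higher and 5 lower, and of the proteases and inhibitors 2 of 14 higher and 5 lower. Of the fibroblast identity genes 4 of 13 were called higher and 4 lower (median -0.10), of the Pi16-type genes 1 of 8 higher and 1 lower, and of the Inmt-type genes 1 of 6 higher and 0 lower. The fibroblast identity list summed to 6246 ± 1511 CPM in the collagen-rich and 6174 ± 458 CPM in the muscle-rich spots (SD, n = 4 sections). Of the 10 macrophage markers none was called, with 2 at an unadjusted p under 0.05 and 0 called by DESeq2.

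Of the signalling genes 14 of 16 were called higher and 0 lower (median 1.48). The 13 other urothelial genes were all called higher too (median 1.34) and the 13 other smooth muscle genes all lower (median -2.30), and the part of urothelial RNA in the signalling result was not tested. The markers of blood endothelium were called higher in 8 of 8 cases, and in 7 by DESeq2. Of the markers of B and plasma cells 7 of 7 were called higher (median 1.72) but 3 by DESeq2, and section 2 held most of their RNA, with sums of 643, 3469, 33.3 and 476 CPM in the collagen-rich spots and 183, 1656, 18.0 and 72.2 CPM in the muscle-rich spots. Of the genes grouped with Car3 and Cxcl14, 2 of 6 were called higher and 2 lower (median -0.17, range -2.96 to 3.06). Car3, the top of that range, averaged 393 CPM in the collagen-rich and 38.6 CPM in the muscle-rich spots (3.06, SE 0.23), and Spon1 190 against 21.4 CPM (2.90). Lymphatic markers were called lower in 4 of 5 cases and Schwann cell markers in 5 of 6.

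The remaining genes named for large differences from muscle-rich spots are given next. Rbp4 averaged 103 against 13.4 CPM (2.68), Gsdmc2 139 against 23.0 CPM (2.33), Shh 98.7 against 19.4 CPM (2.09) and Tspan8 123 against 25.4 CPM (2.03). Lower were Actc1 at 23.0 against 124 CPM (-2.78), Ooep at 23.0 against 111 CPM (-2.66), Acta1 at 353 against 1537 CPM (-2.63) and Rbfox3 at 18.6 against 84.6 CPM (-2.59).

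Against the 969 urothelium-rich spots, 3904 of 13226 genes (29.5%) were called higher in the collagen-rich spots and 4125 (31.2%) lower, with a median of -0.06. Of the other collagens 13 of 14 were called higher. Of the signalling genes 12 of 16 were called higher and 3 lower, of the TGF-beta genes 6 of 10 higher, and of the Car3 and Cxcl14 group 4 of 6 higher. All 14 elastic fibre genes (median 1.90), all 8 other proteoglycans (1.99), all 17 collagen processing genes and all 9 complement genes (2.00) were called higher. So were all 10 macrophage markers (2.04), all 5 lymphatic markers (3.12), all 8 blood endothelial markers and all 13 smooth muscle genes (1.79).

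Ccl21a averaged 136 CPM in the collagen-rich and 8.33 CPM in the urothelium-rich spots (3.85), Slpi 181 against 12.3 CPM (3.79), and C3 560 against 43.5 CPM (3.45). Retnla, a product of alternatively activated macrophages and other cells, averaged 137 against 18.0 CPM (2.77), Clec3b 274 against 38.8 CPM (2.62) and Ccdc80 95.5 against 14.0 CPM (2.57). Lower were the transthyretin gene Ttr (-2.01), Fabp4 at 681 against 2318 CPM (-1.91), Tspan6 (-1.87) and the tight junction gene Cldn8 (-1.86). Median UMIs were far higher in the urothelium-rich spots, 32416 to 50153 against 14087 to 18490 in the collagen-rich ones, and their part in these differences was not tested.

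The ages were compared over the summed collagen-rich spots, 2 sections against 2. The rule ranks spots within a section and does not use age, and the fit held all 12838 genes. The genes of the rule were in it, but since they chose the spots they are described here without a test. At 22 months 179 genes (1.39%) were called higher and 400 (3.12%) lower, with a median of -0.01. These counts fell to 24 and 76 without section 3, to 24 and 218 without section 4, to 23 and 14 with Dcn and Lum alone as fibroblast genes of the rule, and to 62 and 130 after thinning the spots to 2000 UMIs for the ranks. Only 2 sections stand at each age, so age cannot be told apart from other differences between the sections.

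Between the ages Col1a1 differed by 0.19 on the log2 scale, with a sign that turned when section 2 or section 3 was left out. Col3a1 differed by -0.35, turning to 0.45 without section 4, and Dcn by -0.46. Lum differed by -1.91 (SE 0.55): its 99.2 and 58.4 CPM at 22 months lay below its 182 and 406 CPM at 14 months.

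The greatest named falls were Rgs2, Apod, Hspb7, Dpt and Ccdc80. Apolipoprotein D (Apod), a lipid carrier of connective tissue fibroblasts, stood at 201 and 236 CPM at 22 months and at 1015 and 1094 CPM at 14 months (-2.28, SE 0.16, edgeR adjusted p = 0.0013). Rgs2, a regulator of G protein signalling, stood at 63.9 and 34.8 CPM against 313 and 267 CPM (-2.57, SE 0.28, adjusted p = 0.016). Dermatopontin (Dpt), which binds decorin and collagen, stood at 32.5 and 26.3 CPM against 106 and 87.5 CPM (-1.73, SE 0.16, adjusted p = 0.0021). The genes named here were required not to overlap between the ages.

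Hspb7, a small heat shock protein of muscle, stood at 25.2 and 22.0 CPM against 76.9 and 82.4 CPM (-1.77, SE 0.13, edgeR adjusted p = 0.0013), and Ccdc80, a secreted matrix protein, at 51.8 and 39.4 CPM against 106 and 185 CPM (-1.68, SE 0.28, adjusted p = 0.040). The growth factor Igf1, named after its values were seen, stood at 15.2 and 14.9 CPM against 46.4 and 71.4 CPM (-1.98, edgeR adjusted p = 0.0032).

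The greatest named rises were Fabp4, Itga11, Uchl1, Snhg11 and Krt20. Itga11, a subunit of a collagen receptor of fibroblasts, stood at 67.1 and 85.6 CPM at 22 months and at 31.0 and 23.4 CPM at 14 months (1.48, SE 0.21, edgeR adjusted p = 0.011). Uchl1, a ubiquitin hydrolase best known from neurons, stood at 863 and 617 CPM against 347 and 249 CPM (1.29, SE 0.22, adjusted p = 0.021). Fabp4 stood at 948 and 1072 CPM against 437 and 266 CPM (1.51, SE 0.27, adjusted p = 0.036). Snhg11 and Krt20 were higher by 1.24 (adjusted p = 0.0046) and 1.20 (adjusted p = 0.011).

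**Figure D4:**
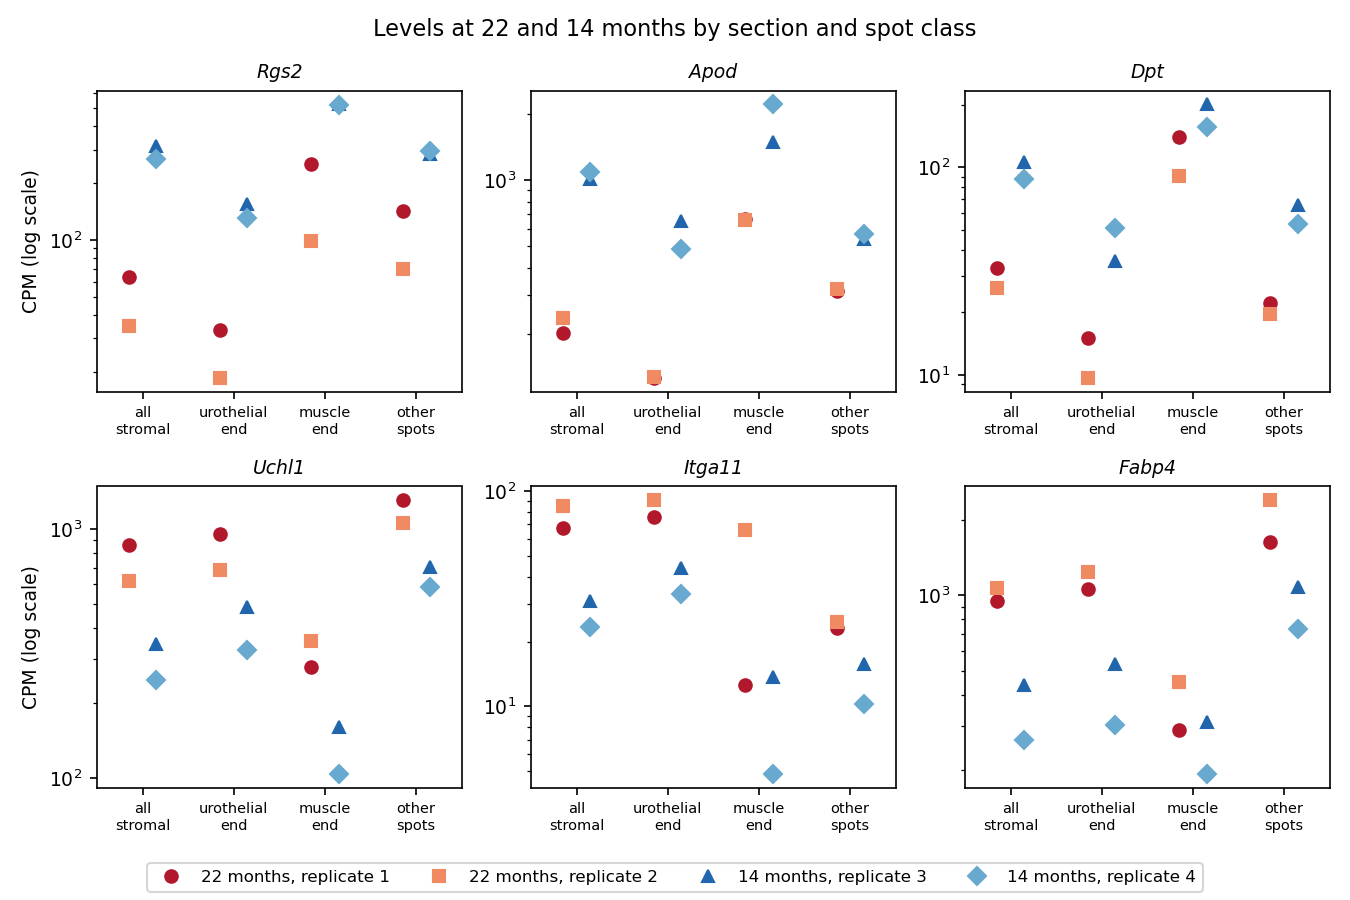
CPM on a log axis of Rgs2, Apod, Dpt, Uchl1, Itga11 and Fabp4 in each section, by class of spots: all collagen-rich spots, the urothelial end, the muscle end and the other spots. Points are single sections, coloured by age; in the collagen-rich spots Apod spans 201 to 236 CPM at 22 months and 1015 to 1094 CPM at 14 months, and Itga11 67.1 to 85.6 CPM and 23.4 to 31.0 CPM.

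By list, 4 of 14 elastic fibre genes were called lower at 22 months and 0 higher, namely Fbln1, Fbln2, Ltbp1 and Mfap4. Likewise 4 of 13 fibroblast identity genes were called lower and 0 higher, namely Clec3b, Dpt, Gsn and Serpinf1. None of the 8 other proteoglycans was called, with 3 at an unadjusted p under 0.05 and 0 called by DESeq2. Of the other collagens Col12a1 and Col6a3 were called higher and Col14a1 lower, and 12 of 15 were not called.

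Of the adhesive genes 2 of 15 were called higher, Thbs2 and Tnc, and 4 lower, Nid1, Postn, Sparcl1 and Tnxb. Thrombospondin 2 (Thbs2) stood at 346 and 391 CPM at 22 months and at 165 and 162 CPM at 14 months (1.16, edgeR adjusted p = 0.0046). Of the collagen processing genes 1 of 17 was called higher, Lox, and 3 lower, Loxl3, P4ha1 and Plod2 (median -0.58). The cross-linking enzyme Lox stood at 38.5 and 40.4 CPM against 20.1 and 13.6 CPM (1.21, edgeR adjusted p = 0.017), and this call was lost without section 4. Of the signalling genes 5 of 16 were called higher, Bmp7, Hhip and Ptch1 among them, and 1 lower, Sfrp1. The members named by list in this paragraph and the one before were named after their calls were seen.

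Other values moved with age in the same sums. The smooth muscle list summed to 13546 and 10771 CPM at 22 months and to 26079 and 17735 CPM at 14 months, and the urothelial list to 13301 and 11938 CPM against 10351 and 9430 CPM. The share of spots at the urothelial end was 66.1% and 58.5% against 35.5% and 54.8%. The sums weight each end by its UMIs, given here without the rule genes. At 22 months the urothelial end gave 5796457 of 6723836 and 3765677 of 4724969 UMIs of the collagen-rich spots. At 14 months it gave 2006612 of 3496972 and 2605951 of 4011243. The 6 urothelial genes of the rule, described without a test, had a median difference of 0.55 and a range of -0.44 to 0.91. Among them Upk1a differed by 0.83, Upk1b by 0.75 and Upk2 by 0.91. Upk1b and Upk2 were named after their values were seen.

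The lymphatic list summed to 119 and 98.4 CPM against 311 and 296 CPM, with Ccl21a (-1.55) and Lyve1 (-1.66) called lower. The macrophage list summed to 1395 and 1938 CPM against 2046 and 2597 CPM, with Cd163 and Mrc1 called lower of 10 (median -0.55), and the mast cell list to 9.48 and 7.25 CPM against 33.5 and 23.4 CPM, with Cma1 and Tpsb2 called lower of 3 (median -1.83). The immediate-early and stress list summed to 1745 and 1327 CPM against 6695 and 3015 CPM in the collagen-rich spots, and to 1832 and 1498 CPM against 5558 and 3379 CPM in the other spots. Of its 20 genes 4 were called lower at 22 months, Hspa1a, Hspa1b, Hspb1 and Socs3, with a list median of -1.59. Cd163, Mrc1, Hspa1a, Hspa1b and Socs3 were named after their calls were seen. The B and plasma cell list summed to 643 and 3469 CPM against 33.3 and 476 CPM, with 0 of 6 genes called and 0 at an unadjusted p under 0.05; DESeq2 gave the same count. The part of these differences in the results by age was not tested.

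Within the urothelial end alone, 22 of 12278 genes (0.179%) were called higher at 22 months and 61 (0.497%) lower. The smooth muscle list still summed to 8052 and 5190 CPM at 22 months there, against 11491 and 8237 CPM at 14 months. The urothelial list summed to 14709 and 13142 CPM against 14653 and 12512 CPM. The part of this admixture in the calls was not tested. Apod (-2.17, edgeR adjusted p = 0.0023), Rgs2 (-2.44, adjusted p = 0.0143), Dpt (-1.77, adjusted p = 0.0143), Hspb7 (-1.73, adjusted p = 0.0123), Itga11 (1.12, adjusted p = 0.0296) and Snhg11 (0.99, adjusted p = 0.0275) were called there too. Fabp4 (1.46, adjusted p = 0.115), Uchl1 (1.01, adjusted p = 0.115), Krt20 (0.92, adjusted p = 0.0717) and Ccdc80 (-1.67, adjusted p = 0.221) were not. Of the 15 signalling genes tested there none was called, with 8 at an unadjusted p under 0.05 and no other tool run on this subset.

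Within the muscle end no gene was called by edgeR, with 619 of 10276 at an unadjusted p under 0.05 and no other tool run. The differences there were -1.44 for Apod, -1.53 for Rgs2, -0.73 for Hspb7 and -0.58 for Dpt. All 4 kept the direction they had at the urothelial end, and whether they differ between the ends was not tested.

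A last comparison tested whether the difference between collagen-rich and other spots itself differed between the ages. Of 14708 genes, 234 (1.59%) had a larger ratio of collagen-rich to other spots at 22 months and 692 (4.7%) a smaller one, with a median of -0.02. Apod had the largest named change. It stood at 201, 236, 1015 and 1094 CPM in the collagen-rich spots and at 312, 320, 540 and 570 CPM in the other spots. The collagen-rich spots lay below the others at 22 months and above them at 14 months (-1.59, SE 0.09, edgeR adjusted p = 1.8e-19). The p-values of this comparison rest on 2 sections at each age and on a spread that edgeR shares between genes. A very small value is therefore not a measure of certainty.

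Ccl21a stood at 72.5, 66.5, 207 and 196 CPM in the collagen-rich spots against 69.8, 93.0, 84.4 and 103 CPM in the others (-1.43, SE 0.18, edgeR adjusted p = 0.0014). Hspb7, Ckm and Acta1 changed by -1.34, -1.38 and -1.33. Apoc1, an apolipoprotein, stood at 99.8, 92.6, 47.5 and 79.9 CPM against 88.3, 71.8, 78.2 and 125 CPM (0.82, SE 0.11, edgeR adjusted p = 4.8e-07). The epithelial genes Cyp2f2, Epcam, Tspan8 and Sdr42e1 changed by 0.78, 0.74, 0.71 and 0.70.

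All 13 smooth muscle genes had a smaller ratio at 22 months (median -1.11) and 7 of 13 urothelial genes a larger one, so the mix of neighbouring layers in the collagen-rich spots moved with this comparison; its part in the change of Apod was not tested. With every spot weighted equally limma called 2 genes with a larger and 54 with a smaller ratio, and without the section as a block edgeR called 0, with 962 at an unadjusted p under 0.05. With Dcn and Lum alone as fibroblast genes of the rule, 85.7% of the 203 called genes had a larger ratio, against 25.3% of 926 here.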

How the data were processed

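The deposited tables hold raw UMI counts per gene and spot, 31053 genes per section, made with the standard Visium protocol per the labels; Space Ranger and the mm10 mouse genome are named in the submitters' processing notes, without versions. Spot positions, and the other samples of the series, were not used here. Spots under 500 UMIs were dropped, and counts were summed per section and class of spots. Sums were tested with edgeR 4.0.16 (TMM factors, filterByExpr, glmQLFit and glmQLFTest, in R 4.3.3) with Benjamini-Hochberg adjustment, the section as a block in the comparisons of classes and the 15 rule genes left out there and in the comparison of ages by class. The fits were also run on simulated counts with 200 changed genes, the same fixed spread for all genes and no differences between sections beyond depth. That run cannot tell how they perform at the spread of these sections. DESeq2 1.42.0 and limma 3.58.1 (log2 CPM with a pseudocount of 1, spots weighted equally, no TMM factors) served as alternatives. So did other rules for the spots, thinning to 2000 UMIs, no filter, no block and leaving out each section. Classes were described in Python 3.11.15 with scipy 1.17.1.

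Genes were named by a rule: among called genes of at least 50 CPM with the same sign in every section (for age, no overlap between the ages), the largest rises and falls, and from each of the 30 lists the 3 members with the highest CPM. Genes outside this rule are said to be named after their values were seen. The members and lists were chosen with earlier results of these data known. The section numbers are not shared between ages, so no samples pair across the ages.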

Additional observations from a re-analysis of the deposited data

Results flagged for a closer look

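Of 60 sets of 4 sections examined, 6 held a section that stood apart from the other 3 by Dixon's criterion; chance gives about 1 in 20. The log2 difference of C3 in section 2 was 0.743 against the other spots and 2.317 against the urothelium-rich spots, below the other sections in both. Rbp4 stood at 2.301 in section 4 against the muscle-rich spots, and Ttr at -2.641 in section 4 against the urothelium-rich spots. Between the urothelial and the muscle end, Ccl21a stood at -3.2 in section 3 and Acta1 at -3.6 in section 1.

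The log2 difference between collagen-rich and other spots differed between the ages, by edgeR's test of that difference itself with the section as a block, in the 10 genes named for it. It was larger at 22 months for Apoc1 (0.821), Cyp2f2 (0.7834), Epcam (0.7357), Tspan8 (0.7088) and Sdr42e1 (0.7017), and smaller for Apod (-1.588), Ccl21a (-1.427), Ckm (-1.382), Hspb7 (-1.341) and Acta1 (-1.331). Without the block none of these was called. With Dcn and Lum alone as fibroblast genes of the rule 6 lost the call, with the collagens alone 5, and with every spot weighted equally 5.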

How the results depend on the processing

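Only 4 sections, 2 at each age, limit every result here. Over all alternatives, the values of single named genes kept their direction and side of the threshold 2367 times, lost the call 218 times, gained one 29 times and turned 20 times. Without the section block 26 named genes lost their call against the other spots and 40 kept it, and with Dcn and Lum alone 10 lost it between the ages. The values that turned and the counts that moved by over 1.5 times follow, with the other counts without the block; the cause was not tested.

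Genes called higher and lower against the other spots were 3878 and 3846 with Dcn and Lum alone as fibroblast genes, 1477 and 552 with spots weighted equally and 1141 and 564 without the section block; with the muscle end alone 3100 were lower. Leaving out single sections gave 1904 to 2378 higher and 1239 to 1861 lower. Against muscle-rich spots they were 1371 and 1360 with Dcn and Lum alone, and 1479 lower with spots weighted equally (2233 to 3236 and 2318 to 2999 without single sections). Against urothelium-rich spots leaving out single sections gave 3373 to 3849 and 3110 to 3507.

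Between the ends, 1075 and 1241 were called with the top 1 in 10 spots, 1163 and 1105 with Dcn and Lum alone, 1229 higher by DESeq2 and 1225 lower with spots weighted equally (1426 to 2145 and 1693 to 2210 without single sections). With the top 1 in 10 spots by the fibroblast share, the collagen-rich share of spots in the sections averaged 9.762%. Without the replicate block, which is here the section, the calls were 2680 and 2704 against muscle-rich spots, 3419 and 3297 against urothelium-rich spots and 1556 and 1829 between the ends.

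Between the ages, genes called higher and lower were 23 and 14 with Dcn and Lum alone, 60 and 225 with the collagens alone, 62 and 130 after thinning, 614 and 971 with no filter, 53 and 83 with spots weighted equally, 22 and 61 at the urothelial end and 0 and 0 at the muscle end; 70 were higher with the top 1 in 10 spots and 94 by DESeq2. Without single sections they ranged from 24 to 303 and from 76 to 505, lowest without section 3 (24 and 76) and highest without section 1 (303 and 505), where the lone section of an age was assumed to vary like the others. For the difference between ages in the class difference, the counts were 26 and 352 with the top 1 in 10 spots, 10 and 288 with the collagens alone, 40 and 245 by DESeq2, 2 and 54 with spots weighted equally and 0 and 0 without the replicate block; 29 were lower with Dcn and Lum alone and 447 after thinning (34 to 453 and 248 to 668 without single sections).

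Log2 differences that turned against the other spots were, with the muscle end alone, Spon1 (-0.36), Car3 (-0.79), Hhip (-0.32), Cxcl14 (-0.41) and Ptch1 (-0.0042). With Dcn and Lum alone Car3 (-0.35) and Cxcl14 (-0.083) turned, as did the median UMI log2 ratio (-0.45) and the mitochondrial difference (0.031). Spots weighted equally turned Col4a1 (-0.11) and Bmp2 (0.057), the urothelial end alone Bmp2 (0.098) and Gsta4 (0.024), and the collagens alone Gsta4 (0.010). Between the ends, Dcn and Lum alone turned Fbln1 (0.065), Ltbp4 (0.10), Scara5 (0.096) and C4b (0.19). Between the ages Col1a1 turned without section 2 (-0.11) and without section 3 (-0.15; range without single sections -0.15 to 0.66), Col3a1 without section 4 (0.45; range -0.84 to 0.45) and Dcn at the muscle end (0.071).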
